A study of Arabidopsis thaliana with 14 samples.

Results

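The deposited H3K9me2 peak list of Arabidopsis thaliana seedlings held 530 wide peaks of pericentromeric heterochromatin that lay clear of H3K27me3, out of 8051 peaks in all. A peak was taken when it lay on chromosomes 1 to 5, measured 2000 bp or more and shared no base with an H3K27me3 peak. Its midpoint also had to fall in a 1 Mb bin, counted from position 1, of which merged H3K9me2 peaks covered 14% or more. The members were thus chosen by the width, position and cover of the H3K9me2 peaks and by the H3K27me3 peak list, and those values are given as a description with no test. The plants were whole 10-day-old seedlings of the C24 ecotype, grown on MS plates with sucrose and given no treatment. All peak lists came from the transgenic wild type (TWT), with 1 chromatin immunoprecipitation (ChIP) library for each of H3K9me2, H3K27me3 and H3K4me3. RNA came from the same kind of TWT seedlings and from the fen1 mutant, named for flap endonuclease 1, an enzyme that trims 5′ flaps on DNA during replication and repair, and the RNA table gave 1 value per genotype from 2 libraries each. The labels do not say what transgene TWT carries, whether fen1 carries it too, or what kind of mutation fen1 is. Marks are described in TWT alone, because fen1 ChIP, H3 and input libraries were not analysed here.

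H3K9me2 marks silent heterochromatin in plants. The methyltransferase KYP and its relatives SUVH5 and SUVH6 write it, and the DNA methyltransferases CMT3 and CMT2 bind it and methylate the DNA beneath, which in turn recruits the histone enzymes. In Arabidopsis this loop works mostly on the transposons that crowd around the centromeres, while H3K4me3 sits at the starts of active genes and H3K27me3 marks genes held silent by Polycomb proteins. Chromosome positions are those of the authors' files, on the TAIR10 build. That build comes from the ecotype Columbia and the plants were C24, and the effect of this on peak width was not tested.

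The bins that met the cover rule formed 1 unbroken block on each chromosome. They numbered 25 of the 121 bins with any H3K9me2 peak, and H3K9me2 covered between 14.85% and 65.4% of each, with a median of 36.7%. These bins were poor in the active mark, a measure the rule did not use: they held 34.2 H3K4me3 peaks per bin on average, against 153 in the other 96 bins. This scarcity is an average. Single bins held 3 to 101 H3K4me3 peaks, and the bin on chromosome 5 from 14000001 to 15000000, which missed the cover rule, held 59. No centromere or transposon annotation was used, so the name pericentromeric rests on the cover rule, and nearness to a centromere was not measured. Of the 8044 H3K9me2 peaks on the 5 chromosomes 80.6% lay in these bins, and 1266 of them were at least 2000 bp wide. The 530 without H3K27me3 were 6.59% of the peaks and held 18.1% of all bases under H3K9me2.

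The wide peaks were spread over every chromosome. Chromosome 1 carried 96 of them in 5 bins, chromosome 2 carried 125 in 6, chromosome 3 carried 106 in 5, chromosome 4 carried 88 in 5 and chromosome 5 carried 115 in 4. Per bin the number ran from 17.6 on chromosome 4 to 28.8 on chromosome 5. Single bins held between 6 and 32, with a median of 21, and the bin with the fewest was the outermost bin of the chromosome 1 block.

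The bin with the highest cover was not always the bin with the most bases in wide peaks. On chromosomes 3, 4 and 5 the same bin led in cover among those of its chromosome and in bases in wide peaks. On chromosome 2 the bin at 2000001 to 3000000 held 124218 bp in 28 wide peaks, and the bin with the highest cover, at 4000001 to 5000000, held 81164 bp in 25. On chromosome 1 the bin at 16000001 to 17000000 held 104861 bp in 27 wide peaks, against 62464 bp in 21 in its most covered bin.

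**Figure D1:**
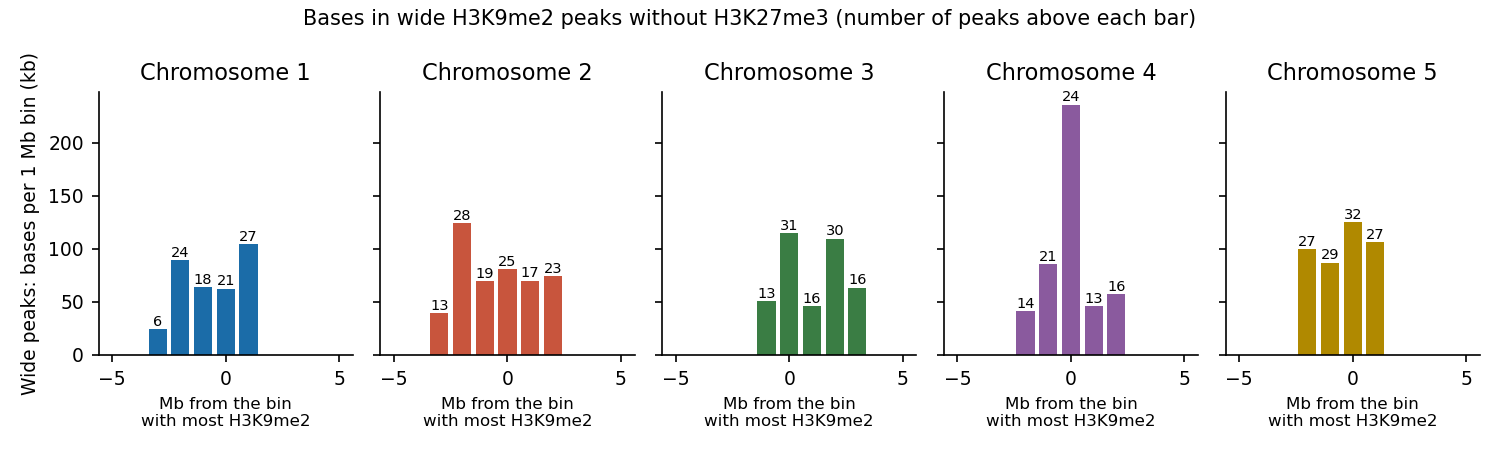
Bars give the bases under wide H3K9me2 peaks without H3K27me3 in each 1 Mb bin (kb), against the distance in Mb from the chromosome's bin with the most H3K9me2 cover. The number above a bar counts its peaks, and the tallest bar is the fourth bin of chromosome 4, with 24 peaks.

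Most members were only a few kilobases wide. Their widths had a median of 2932 bp, with quartiles at 2327 and 4173 bp, and 180 of the 530 (34.0%) were under 2500 bp. A further 92 reached 5000 bp and held 38.6% of the members' bases, and 28 reached 10000 bp. By chromosome the median width lay between 2775 bp on chromosome 5 and 3209 bp on chromosome 3. The widest peak of chromosome 1 was chr1:16522788-16534368 (11581 bp, score 3100). On chromosome 2 it was chr2:2637472-2652648, of 15177 bp and with the lowest score of all members, 80.9. On chromosome 3 it was chr3:14273210-14285366, of 12157 bp and with the highest score, 3233. The peak chr4:3066388-3086623 was the widest of all at 20236 bp and scored 465, and chr5:13394009-13413848 reached 19840 bp with a score of 749.

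The score is the authors' own value for each peak from the peak caller, and its scale is not named in the file. It ran from 80.9 to 3233 among members, with a median of 1165, and 315 members exceeded 1000 while 55 stayed under 500. The value 3100 was shared by 34 members and by 168 peaks of the whole H3K9me2 list, and 8 members lay above it. After the top score on chromosome 3 came chr3:15306741-15312196 at 3212, chr4:2945707-2948930 at 3205, chr1:13334501-13340091 at 3189 and chr2:1388833-1392994 at 3180, all between 3224 and 5591 bp wide. Width and score rose together up to a point. Median scores were 866 for members under 2500 bp, 953 from 2500 to 3000 bp, 1483 from 3000 to 5000 bp and 2706 from 5000 to 10000 bp. The 28 members of 10000 bp or more broke this order, with a median of 1626 and a range from 80.9 to 3233. Spearman's rho between width and score was 0.53 across the 530 members, which share 1 library and are not replicates. The width limit of the rule narrows that range, and over all 8044 peaks rho was 0.75. Of the 5 lowest scores, 4 belonged to members over 10000 bp wide: chr2:2637472-2652648, chr4:3491658-3511855 (20198 bp, 81.8), chr5:12697009-12707453 (10445 bp, 92.3) and chr1:13731863-13743354 (11492 bp, 172).

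The width limit fell within a continuous range of widths. The 3 members just inside it measured 2000, 2004 and 2004 bp and scored 1217, 1226 and 479, and the 3 pericentromeric peaks without H3K27me3 just outside measured 1992, 1998 and 1999 bp and scored 1813, 484 and 401. The bin nearest below the cover limit, on chromosome 5 from 14000001 to 15000000, had 12.7% cover and 5 wide peaks without H3K27me3, between 2050 and 6972 bp, with a median score of 1169.

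**Figure D2:**
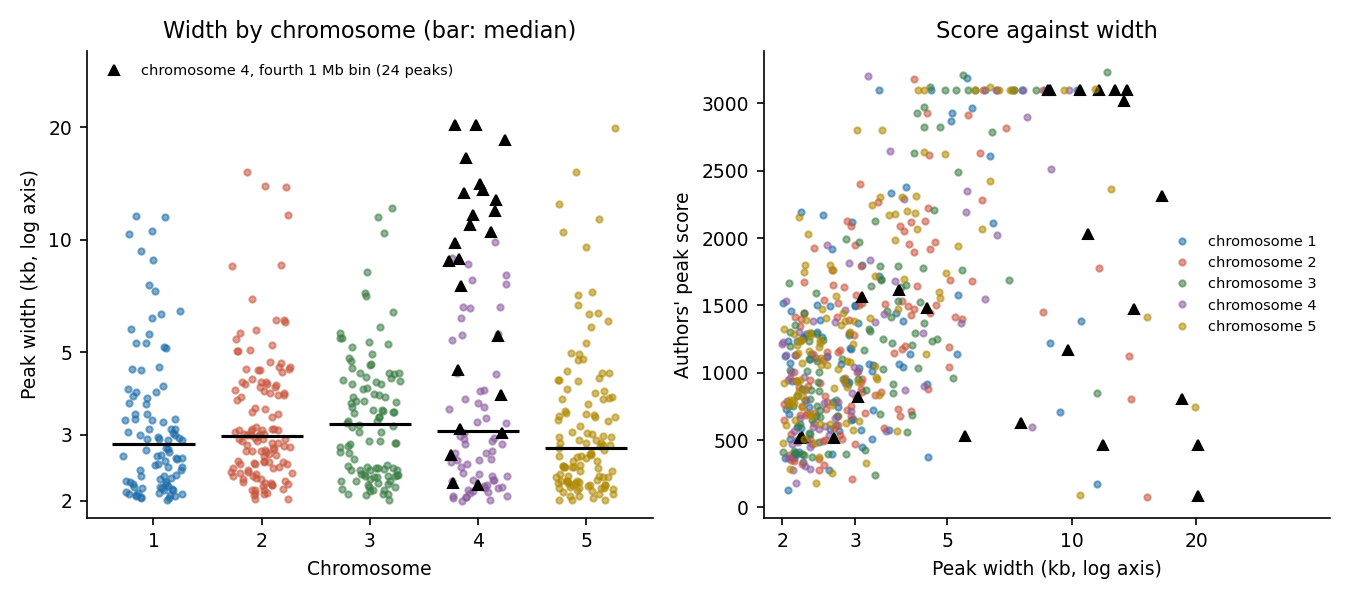
Left, the width of each of the 530 peaks (kb, log axis) by chromosome, with a bar at the median. Right, the authors' peak score against width (kb, log axis); black triangles in both panels are the 24 peaks of the fourth 1 Mb bin of chromosome 4, of which 12 reached 10 kb.

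One stretch of chromosome 4 stood apart in width. In the bin from 3000001 to 4000000 the 24 members had a median width of 10124 bp, and the next highest bin median was 3705 bp, on chromosome 3. This bin held 12 of the 28 members that reached 10000 bp, 50.6% of the members' bases on chromosome 4 and 11.4% of those in the genome. Without it the median width on chromosome 4 was 2702 bp and over all chromosomes 2896 bp. The wide peaks with H3K27me3 were broad in the same bin too, with a median of 6369 bp over 30 peaks against 3919 bp for such peaks elsewhere. Scores of the 24 members covered nearly the whole range, from 81.8 to 3100, and 6 of them stood at 3100. This bin carried 6 H3K4me3 peaks.

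Several of these broad peaks followed each other with almost no gap. Between 3054284 and 3113627 on chromosome 4, 4 members of 11644, 20236, 13350 and 13599 bp were separated by 460, 29 and 26 bp. Their scores were 3100, 465, 3015 and 3100, so the widest of the run scored far below its neighbours. A second run between 3214166 and 3245421 held 5 members of 3825 to 9801 bp with gaps of 55, 17, 5 and 46 bp, and their scores lay between 531 and 1615.

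Most members, on all 5 chromosomes, had another H3K9me2 peak close by. The nearest other H3K9me2 peak lay a median of 68.5 bp from a member's edge, with quartiles at 24 and 321 bp, and was under 500 bp away for 432 of the 530 (81.5%). Both neighbours were that close for 230 members (43.4%), and 61 members had no neighbour within 1000 bp on either side. Short pericentromeric peaks without H3K27me3 had a close neighbour about as often, 78.7% of 4507, and wide peaks without H3K27me3 in the other bins did so in 45.2% of 135. The cover rule itself sets much of this contrast with the other bins. The median gap between successive H3K9me2 peaks was 298 bp in the pericentromeric bins and 9581 bp in the other bins. Of the 1060 neighbouring positions of members, 55.2% held a short peak without H3K27me3, 20.8% a wide peak with H3K27me3 and 16.0% another member. The pericentromeric bins held 6485 H3K9me2 peaks: 4507 short without H3K27me3, 736 wide with H3K27me3 and 530 members (8.17%). Short peaks without H3K27me3 thus made up less of the neighbouring positions than of the peaks, and both wide kinds made up more.

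Joining H3K9me2 peaks less than 500 bp apart gave longer domains. The 530 members then fell into 417 domains with a median width of 7597 bp and a median of 3 called peaks. A single called peak made up 98 of these domains, and 84 held 2 or more members. The widest was chr4:3805486-3893217, of 87732 bp, with 9 called peaks of which 3 were members. The domain chr4:3208506-3246565 held the most members, 6, and chr1:14204027-14256615 the most called peaks, 30. The gaps are those the authors' peak caller left. How it treated reads that match several places is a detail not given in the sources used here, and its part in the gaps was not tested.

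Overlap with the active mark H3K4me3, which came from a library the rule did not use, was rare among members and among H3K9me2 peaks in general. An H3K4me3 peak overlapped 7 of the 530 (1.32%, exact Clopper-Pearson 95% interval 0.533 to 2.70%), and 2054 of their 2074815 bases (0.099%) lay under one. Over all H3K9me2 peaks of the 5 chromosomes the share was 56 of 8044 (0.696%, 0.526 to 0.903%). All 7 overlaps were at an edge, where an H3K4me3 peak reached in from outside, and none lay wholly inside a member. The longest was 965 bp, where chr2:6508760-6511088 met an H3K4me3 peak of score 2468. The next were 505 bp at chr3:12444390-12447894, where the H3K4me3 peak scored 115, and 387 bp at chr3:15571147-15579345, where it scored 517. The other 4 shared 135, 40, 15 and 7 bp. No overlap reached 50% of the shorter peak, a count of 0 that allows a share of up to about 0.566%. That limit is an approximation, 3 counts of 530, and not the exact interval used for the other shares. Shares elsewhere were 4 of 736 wide peaks with H3K27me3 (0.543%, 0.148 to 1.39%), 7 of 4507 short peaks (0.155%, 0.0625 to 0.320%) and 5 of 135 wide peaks of the other bins (3.70%, 1.21 to 8.43%). A wider peak has more bases that can meet another, neighbouring peaks are not replicates and each mark had 1 library, so these intervals cover counting error only and no test was made.

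The distance of members to H3K4me3 lay between those of short peaks of the same bins and of wide peaks elsewhere. The nearest H3K4me3 peak was a median of 16342 bp from a member, with quartiles at 5476 and 44381 bp. It was 36448 bp from a short pericentromeric peak without H3K27me3, 26920 bp from a wide one with H3K27me3 and 2436 bp from a wide peak without H3K27me3 in the other bins. Over all H3K9me2 peaks the median was 21398 bp. Within 5000 bp an H3K4me3 peak was found for 121 members (22.8%, 19.3 to 26.6%), for 10.7% of the short peaks (9.85 to 11.7%) and for 77.0% of the wide peaks of the other bins (69.0 to 83.8%). The members' share was close to that of all H3K9me2 peaks, 1752 of 8044 (21.8%, 20.9 to 22.7%). The bins held between 3 and 101 H3K4me3 peaks, so the comparison was also made inside each bin. Members had the smaller median distance than short peaks in 21 of 25 bins, and the median over bins was 14101 bp for members and 19015 bp for short peaks. The broad chromosome 4 bin was one of the 4 exceptions, with 123648 bp for members and 109847 bp for short peaks. With H3K4me3 peaks of score 100 or more the count was 21 of 25 again. Against wide peaks with H3K27me3 members had the smaller median in 17 of 25 bins, with a median over bins of 16507 bp for those peaks. Distances run from peak edges, so a wider peak takes in more ground within a set distance, and these values were not adjusted for width. No replicate exists to test these differences.

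**Figure D3:**
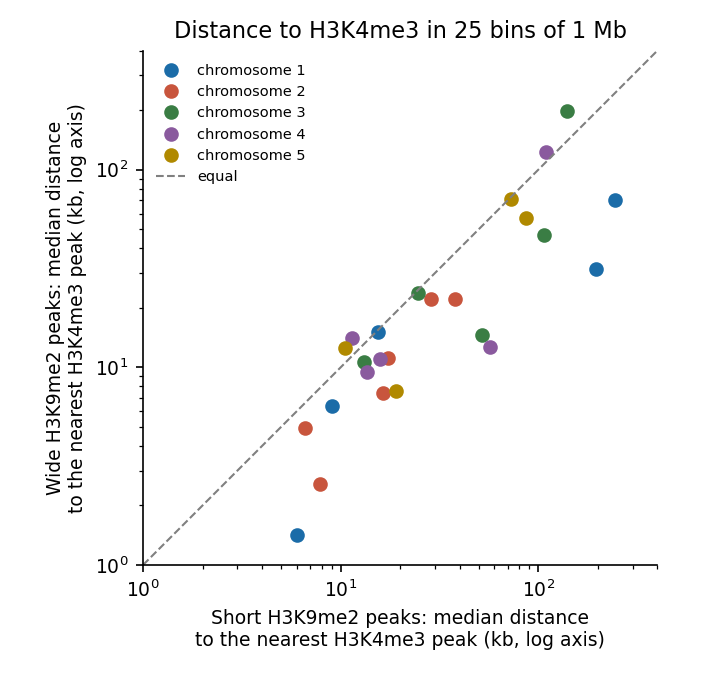
Each point is one of the 25 pericentromeric 1 Mb bins and gives the median distance to the nearest H3K4me3 peak (kb, log axes) for wide peaks without H3K27me3, on the vertical axis, and for short ones, on the horizontal axis. Points below the dashed line of equality are the 21 bins in which the wide peaks lay nearer.

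The distance to H3K4me3 is given by chromosome and by bin. Bins are parts of the chromosomes, so their medians must span at least as wide a range. Chromosome medians for members ran from 9677 bp on chromosome 2 to 28193 bp on chromosome 3. Bin medians ran from 1425 bp, in the outermost bin of the chromosome 1 block with its 87 H3K4me3 peaks, to 198194 bp on chromosome 3 from 13000001 to 14000000, a bin with 3 such peaks. In all 59 members (11.1%) lay more than 100000 bp from any H3K4me3 peak, and 34 (6.42%) lay within 1000 bp of one. The most distant was chr1:15087990-15090047, a member of 2058 bp and a score of 129, at 517032 bp.

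Beyond their edges members were flanked by further H3K9me2. H3K4me3 there was scarcer than around wide peaks of the other bins, but less scarce than around the other pericentromeric peaks compared. In the first 1 kb outside a member's edges H3K9me2 peaks covered 53.9% of bases, H3K27me3 peaks 9.84% and H3K4me3 peaks 1.94%. From 1 to 2 kb these shares were 61.1%, 16.2% and 3.77%. Between 19 and 20 kb H3K9me2 still covered 47.8% of bases, H3K27me3 18.2% and H3K4me3 4.17%. At that distance H3K9me2 covered 53.3% of bases around wide peaks with H3K27me3 and 42.6% around short pericentromeric peaks, so the members' value lay between them. H3K4me3 was lower around both than around members. In the first 1 kb it covered 1.36% of bases around wide peaks with H3K27me3 and 0.547% around short ones. Between 19 and 20 kb these shares were 2.54% and 2.73%. The cover rule itself sets much of the H3K9me2 contrast with the other bins. There H3K9me2 around wide peaks dropped from 22.7% in the first 1 kb to 3.03% between 19 and 20 kb. H3K4me3, which the rule did not use, covered 20.2% of bases around those peaks between 19 and 20 kb.

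**Figure D4:**
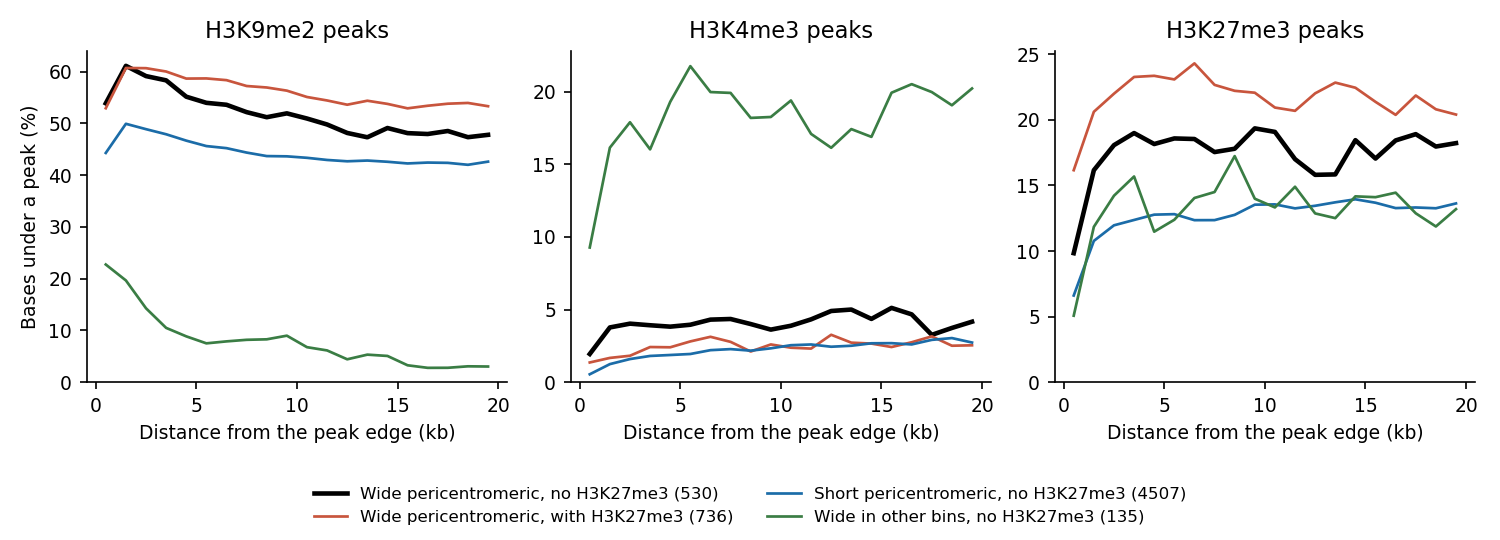
Lines give the share of bases (%) under a peak of each mark in 1 kb steps outward from the edges of 4 kinds of H3K9me2 peak, with the number of peaks in the key. H3K9me2 stays at 47.8% of bases at 19 to 20 kb from members (black) and is at 3.03% around wide peaks of the other bins (green), where H3K4me3 is at 4.17% and 20.2%.

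The absence of H3K27me3 is part of the rule, and it removed most wide pericentromeric peaks. Of the 1266, 736 (58.1%) met an H3K27me3 peak, and by bin this share lay between 34.3% and 69.8%. By width it was 39.2% under 2500 bp, 52.4% from 2500 to 3000 bp, 61.1% from 3000 to 5000 bp and 75.8% from 5000 to 10000 bp. It was lower again, at 68.5%, for the 89 peaks of 10000 bp or more. A wider peak has more bases that can meet another, and these shares were not adjusted for width. In the 736 a median of 59.9% of the bases lay under H3K27me3. The overlap ran down to 36 bp, at chr4:2922445-2925207. The H3K27me3 peaks on them were weak by the authors' score, with a median of 86.0 over 943 peaks, of which 61.3% scored under 100. In the other bins 6963 H3K27me3 peaks had a median score of 148, and 33.4% scored under 100. The pericentromeric bins held 2238 H3K27me3 peaks, and the scores of those away from wide H3K9me2 peaks were not compared. Members themselves were not remote from H3K27me3: 158 (29.8%) had a peak within 1000 bp, the closest at 5 bp, and the median distance was 2630 bp. That median was 3572 bp for short pericentromeric peaks without H3K27me3 and 5916 bp for wide peaks without it in the other bins. Over all H3K9me2 peaks, including those that overlap H3K27me3, it was 1865 bp.

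FEN1 itself (AT5G26680) was read first in the RNA data. The authors' deposited table put it at 14.5 FPKM in TWT and at 22.7 FPKM in fen1 (fragments per kilobase of transcript, scaled to sequencing depth), a log2 fold change of 0.65 with q = 0.00462. The labels do not say whether the mutation acts on the transcript level, so this value does not check them. In whole seedlings fewer cells of a type and less RNA per cell cannot be told apart.

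A single gene called in fen1 touched a member. The authors' deposited table held 1114 genes at a q under 0.05, or 5.53% of the 20132 tested, and 1 of them overlapped a member. That table does not show how many tested genes lie on or near members, so the count cannot be set against this share. The gene was AT2G05914, a non-coding RNA gene on the minus strand of chromosome 2 (2263151 to 2264542) that lay whole within the member chr2:2262456-2264680, of score 322. The authors' deposited table put it at 1.94 FPKM in TWT and 0.30 FPKM in fen1, with a log2 fold change of −2.70 and q = 0.016. With a pseudocount of 1 FPKM on the levels of the authors' deposited table its log2 change was −1.18. It is described there as a possible antisense gene of AT2G05915, and strand handling is not known here, so reads of the pair cannot be told apart.

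Within 5 kb of a member lay 12 genes of the table, and 10 of them were lower in fen1. The share lower was 83.3% (exact Clopper-Pearson 95% interval 51.6 to 97.9%). Among the 63 listed genes of pericentromeric bins farther than 5 kb from a member it was 54.0% (40.9 to 66.6%), with 34 lower. In the other bins 386 of 1039 were lower (37.2%, 34.2 to 40.2%). Of all tested genes 3.4% were called higher and 2.14% lower. Median log2 fold changes from the authors' deposited table were −1.34 for the 12 genes, −0.45 for the 63 and 0.62 over all 1114. The intervals for the 12 and the 63 overlap, genes are not replicates, and the difference was not tested.

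The genes near members with 5 FPKM or more in TWT were lower in fen1 in all but 1 case. Under 5 FPKM in TWT lay 6 of the 12 genes, and 5 of these were lower. The exception there, PFA-DSP4, was just under this limit at 4.90 FPKM. FTM1, of the stearoyl-ACP desaturase family that makes unsaturated fatty acids, ended 1615 bp from chr1:16581337-16585238. The authors' deposited table listed it at 71.5 FPKM in TWT and 44.6 FPKM in fen1 (log2 −0.68, q = 0.00173). EXPA5, an expansin that loosens cell walls, started 2745 bp from chr3:11016103-11020911, a member of score 2825. Its level was 60.8 FPKM in TWT against 31.8 FPKM in fen1, per the authors' deposited table (log2 −0.93, q = 0.00173). The copper amine oxidase gene AT3G43670 lay 1246 bp from chr3:15571147-15579345, a member of score 3100 that H3K4me3 overlapped at its edge. By the authors' deposited table it fell from 15.6 FPKM in TWT to 5.70 FPKM in fen1 (log2 −1.46, q = 0.00173).

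On chromosome 4 both such genes lay beside broad members. The leucine-rich repeat gene AT4G06744 ended 1204 bp from chr4:4059742-4069609, of 9868 bp and score 3100. Per the authors' deposited table it had 22.4 FPKM in TWT and 9.64 FPKM in fen1 (log2 −1.22, q = 0.00173). AT4G05070, of a wound-responsive family, started 2792 bp from chr4:2596911-2605822, of 8912 bp and score 2512. The authors' deposited table showed the smallest change of the 12 for it, with 105 FPKM in TWT and 70.9 FPKM in fen1 (log2 −0.57, q = 0.00717).

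AT2G14247 and PFA-DSP4 rose in fen1. AT2G14247, which encodes a protein of unknown function, started 3854 bp from chr2:6028293-6030494, and the authors' deposited table listed 30.6 FPKM in TWT and 157 FPKM in fen1 (log2 2.35, q = 0.00173). PFA-DSP4, an atypical dual-specificity phosphatase gene, ended 1618 bp from chr4:1890829-1893367. For it the authors' deposited table listed 4.90 FPKM in TWT and 8.34 FPKM in fen1 (log2 0.77, q = 0.0279). Both members were narrow, at 2202 and 2539 bp, and scored 690 and 609. Narrow members also went with lower genes: AT2G05914 and WNK9 had members of 2225 and 2255 bp, with scores of 322 and 510. The members at the other genes lower in fen1 were 3382 bp or wider.

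The remaining 4 genes were weakly expressed and lower in fen1. AT4G06534, of unknown function, started 1878 bp from chr4:3344546-3354992, a member of 10447 bp in the broad chromosome 4 bin. The authors' deposited table had it at 2.24 FPKM in TWT and 0.25 FPKM in fen1 (log2 −3.14, q = 0.0433). WNK9, a gene of the WNK protein kinase family, ended 822 bp from chr5:10086994-10089248, the shortest distance of the genes outside a member. Its values in the authors' deposited table were 1.45 FPKM in TWT and 0.21 FPKM in fen1 (log2 −2.82, q = 0.0319). ELF4-L3, a relative of the clock gene ELF4, ended 1270 bp from chr2:2461081-2465489, and per the authors' deposited table it had 3.95 FPKM in TWT and 1.35 FPKM in fen1 (log2 −1.55, q = 0.0369). The copia-like retrotransposon gene AT5G35777, 1923 bp from chr5:13943924-13947305, stood in the authors' deposited table at 0.72 FPKM in TWT and 0.23 FPKM in fen1 (log2 −1.64, q = 0.00593). With a pseudocount of 1 FPKM the log2 changes of AT4G06534, WNK9 and AT5G35777 were −1.37, −1.02 and −0.48, from levels in the authors' deposited table.

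Marks on the genes themselves varied. In TWT 7 of the 12 carried an H3K4me3 peak, 4 an H3K27me3 peak and 1, AT2G05914, an H3K9me2 peak, while EXPA5 and ELF4-L3 carried none. FTM1 and AT4G06534 carried both H3K4me3 and H3K27me3.

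**Figure D5:**
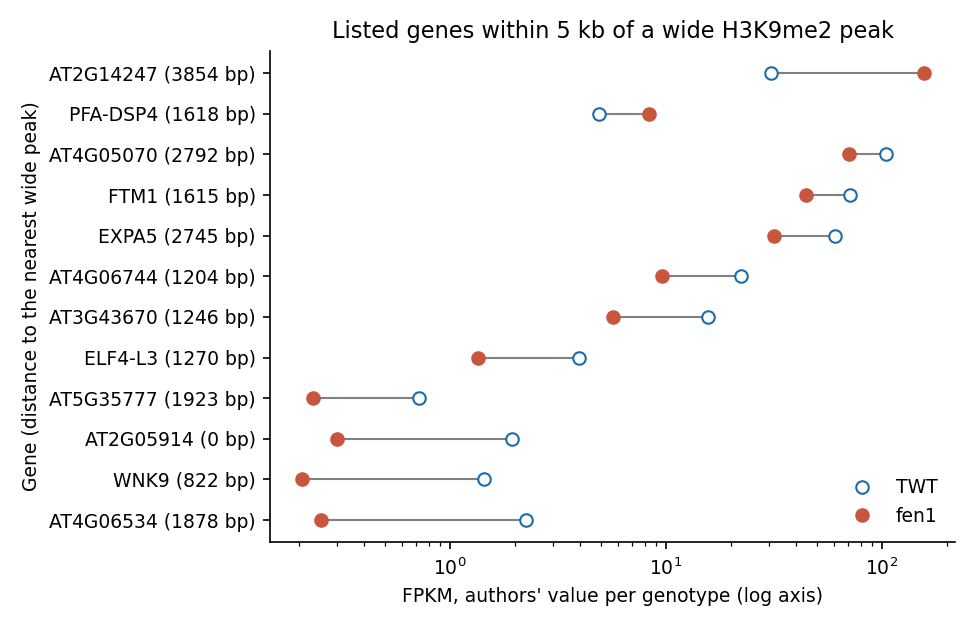
FPKM in TWT (open circles) and fen1 (filled circles) on a log axis, as the authors' value per genotype, for the 12 listed genes within 5 kb of a member, ordered by log2 fold change with the distance to the member in bp. The filled circle lies left of the open one for 10 genes and right of it for AT2G14247 and PFA-DSP4.

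A list of 27 heterochromatin genes covered enzymes of histone and DNA methylation, histones, remodelling, silencing and RNA-directed DNA methylation. Of these 25 were found in the reference names, and 1 of the 25 (4%, against 5.53% of all tested genes) was called, a share near the background. How many of the 25 were tested is not known. CMT3, which methylates DNA at sites bearing H3K9me2, was listed in the authors' deposited table at 17.9 FPKM in TWT and 24.6 FPKM in fen1 (log2 0.46, q = 0.0226). The H3K9 methyltransferase genes KYP, SUVH5 and SUVH6, the remodeller gene DDM1 and the H3K9 demethylase gene IBM1 were not listed, which leaves their levels unknown.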

How the data were processed

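The series has 14 samples, and the files analysed were the authors' 3 TWT peak lists and 1 RNA table. Per the submitters' processing notes, Bowtie 0.12.9, SAMtools, TopHat2 2.1.1, Cuffdiff 2.1.1 and the TAIR10 build were used, with no role given. Peak names in the deposited files point to MACS. Not given in the sources used here: version, control library, settings. Each deposited peak score is the authors' own value. Each list is 1 library, and read depth is unknown. BED starts were made 1-based.

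The deposited RNA values were read as FPKM from the Cuffdiff layout, 1 value per genotype, combined by the authors. The authors' deposited log2 fold changes have no pseudocount, and their p-value and q-value were used as given. The 20132 tested genes follow from p, q and rank. The labels do not state if the 2 replicates of a genotype were grown apart.

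Overlaps needed 1 bp. Distances run between nearest edges. Python 3.11.15, pandas 2.3.3 and scipy 1.17.1 were used, and the interval code was tested on simulated data. Named peaks were the widest per chromosome, the 5 highest and lowest scores, those with most H3K4me3 overlap and those at the width limit. The chromosome 4 runs, the joined domains, the peak farthest from H3K4me3 and the smallest H3K27me3 overlap were chosen after their values were seen. Named genes were those within 5 kb, called heterochromatin genes and FEN1. Symbols came from a TAIR10.1 table, used for names alone, with 1113 of 1114 genes matched. The members and lists were chosen with earlier results of these data known. No genome sequence was used.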

Additional observations from a re-analysis of the deposited data

How the results depend on the processing

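The number of members stayed within 1.5 times of 530 at a minimum width of 1500 bp (793), at 10% or 20% cover (535 and 497) and with 500 kb bins (520). With peaks under 500 bp apart joined, 438 joined stretches were counted. These are other units than members, since the joined domains that hold a member numbered 417. The number of members was 251 at a minimum width of 3000 bp and 1266 with H3K27me3 ignored. It was 889 with scores of 100 or more in all 3 lists, which removes the weaker H3K27me3 peaks. The share overlapping H3K4me3 was 0% when 50% of the shorter peak had to be shared, and from 0.787% to 1.99% under the other 5 alternatives. Members held 18.3% of H3K9me2 bases at 10% cover and 17.2% at 20% cover, and the joined stretches held 16.95% after joining. The median score of members was 915 at 1500 bp and 1634 at 3000 bp. The number of listed genes that overlapped a member was 1, and it was 9 with gene bodies extended by 2 kb and 12 by 5 kb. Without extension the overlap count was 0 at a q under 0.01 and 1 with at least 1 FPKM in one genotype. All 14 named genes kept their direction on log2(FPKM + 1). The medians without the fourth bin of chromosome 4, over bins and with strong H3K4me3 peaks were chosen after seeing the data. No paired analysis was possible because the RNA table has 1 value per genotype and each mark 1 library, and for the same reason no replicate could be left out.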
